A study of Mus musculus with 20 samples.

Results

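The genes that copy DNA and supply its building blocks formed a set of 46 in mouse proximal colon organoids, and all 46 were measured among 21410 genes tested. They were listed by name from textbook roles: the 6 subunits of the MCM2-7 helicase, 7 partners of that helicase, 5 genes of origin licensing, 8 of DNA polymerases and primase, 9 of the sliding clamp, its loaders and lagging-strand work, 5 of nucleotide supply and 6 of chromatin assembly and the replication fork. The list was drawn up with earlier results of these data known. The share of these genes called therefore cannot be read as an independent test. All 46 passed the filter on dim probes. Organoids are small epithelial structures grown from gut stem cells in a gel. In this series total RNA from each culture was hybridised to single-colour (Cy3) Agilent arrays, 20 in all.

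EV, BRAF and selected organoids came from male mice, about 40 days old, heterozygous for Braf+/LSL, an allele that makes the active kinase BrafV600E only after Cre recombinase has acted on it. EV organoids received the lentiviral backbone alone, so they carried the allele in its inactive form. BRAF organoids had been given Cre by lentivirus, and the series text gives 5m after induction, read here as 5 months. Selected organoids derive from BrafV600E organoids that were picked for growth in base medium, which has no niche factors. Each line was kept for 48 h either in ENSW medium or in base medium, and the labels describe a culture medium with EGF, Noggin, R-Spondin and Wnt3a, all but the first as conditioned media. There were 3 lines of each of these types, grown in both media, which made 6 groups of 3 arrays. Wild-type organoids had 1 array per medium and are described only. The labels use the same 3 line names for EV, BRAF and selected organoids, and nothing says whether lines came from separate animals or what a shared name means across types, so p-values measure the spread between these lines, which may be technical.

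In a dividing cell, replication starts at sites where the origin recognition complex, Cdc6 and Cdt1 load the ring of Mcm2 to Mcm7 onto DNA. Cdc45 and the GINS complex then turn the ring into the active helicase, primase and polymerase alpha begin each strand, and polymerases delta and epsilon extend them on the clamp Pcna. Ribonucleotide reductase, thymidine kinase, thymidylate synthase and dUTPase set the supply of nucleotides. Most of these genes are transcribed late in G1 and in S phase under E2F factors, and in the colon they mark the dividing cells of the lower crypt.

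E2F factors bind short words in promoters, and promoter sequence was therefore examined beside the transcript values. RefSeq promoter entries (GRCm38.p6, 250 bases before to 50 bases after the start) were found for 35 of the 46 genes. Any of the 4 words TTTCCCGC, TTTGGCGC, TTTCGCGC and TTTGCCGC, on either strand, stood in 14 of the 35 promoters (40%) and in 704 of 27025 genes with an entry (2.6%). In the 150 bases before the start the counts were 7 of 35 (20%) and 389 of 27025 (1.44%). The words share letters, so 1 stretch can match more than 1 of them, and 5 promoters held 2 or more matches. The word CCAAT, on either strand, stood in 20 of 35 (57.1%) against 41.1% of genes, and TTTGAA, a core of the element used by cell-cycle genes, in 5 of 35 (14.3%) against 20.2%. A match describes the letters in this window and is not evidence of binding.

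Of the 35 promoters 6 are printed from 170 bases before to 30 bases after the start, 5′ to 3′ on the gene's strand, with matches to the E2F words in capitals. Mcm5 (chr8:75109339-75109538, plus strand) had the largest difference between media in EV organoids, and its words overlap on opposite strands. Mcm6 (chr1:128359676-128359875, minus strand) held the most words in this stretch, 3. Cdc6 (chr11:98907981-98908180, plus strand) was not well above background on any EV array in base medium. Gins3 (chr8:95633389-95633588, plus strand) was the 1 gene of the set called higher in BRAF than in EV organoids in ENSW medium, against 4.8% of all genes. Orc1 (chr4:108579284-108579483, plus strand) was the 1 gene called lower in selected organoids there, against 5.15% of all genes. Neither call was kept in every setting. Wdhd1 (chr14:47276828-47277027, minus strand) was the gene that did not fall, and it holds no such word.
Mcm5: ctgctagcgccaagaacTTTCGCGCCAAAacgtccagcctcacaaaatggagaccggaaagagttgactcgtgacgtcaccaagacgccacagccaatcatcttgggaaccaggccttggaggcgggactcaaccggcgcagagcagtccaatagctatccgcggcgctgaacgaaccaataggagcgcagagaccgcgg
Mcm6: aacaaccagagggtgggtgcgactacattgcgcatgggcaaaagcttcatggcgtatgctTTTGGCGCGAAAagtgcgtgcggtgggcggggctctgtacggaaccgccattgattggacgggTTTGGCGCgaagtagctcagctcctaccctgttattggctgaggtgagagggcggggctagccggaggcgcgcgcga
Cdc6: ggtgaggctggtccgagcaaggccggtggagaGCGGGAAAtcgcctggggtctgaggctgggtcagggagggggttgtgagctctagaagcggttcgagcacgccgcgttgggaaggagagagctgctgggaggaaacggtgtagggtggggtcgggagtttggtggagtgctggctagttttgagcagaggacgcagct
Gins3: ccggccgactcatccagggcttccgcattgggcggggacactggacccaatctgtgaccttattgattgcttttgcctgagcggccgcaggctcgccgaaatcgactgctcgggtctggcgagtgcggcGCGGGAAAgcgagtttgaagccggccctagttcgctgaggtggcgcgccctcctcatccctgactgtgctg
Orc1: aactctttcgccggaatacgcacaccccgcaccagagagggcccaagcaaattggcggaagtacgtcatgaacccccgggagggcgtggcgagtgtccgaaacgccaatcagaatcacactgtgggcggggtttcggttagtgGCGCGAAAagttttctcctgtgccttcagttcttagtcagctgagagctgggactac
Wdhd1: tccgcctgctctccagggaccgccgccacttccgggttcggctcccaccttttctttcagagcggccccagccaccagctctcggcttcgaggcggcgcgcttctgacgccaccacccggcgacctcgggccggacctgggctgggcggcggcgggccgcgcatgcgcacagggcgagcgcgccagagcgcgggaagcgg
Between genes with and without a word the difference between media in EV organoids overlapped widely. Its median on the log2 scale was -3.61 (range -5.64 to -1.25) for the 14 with a word and -2.86 (range -5.43 to 0.44) for the 21 without.

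Levels are log2 signal with the array's 75th percentile set to 0, and each gene stands on its brightest probe, so levels are set side by side only within a gene. Between 59.6% and 65.2% of spots were well above background on each array. All 7 epithelial markers, Epcam, Cdh1, Krt8, Krt18, Krt19, Vil1 and Cdx2, were well above background on all arrays of every group, which fits the label of epithelial organoids. Of 12 stromal, endothelial and blood markers, 7 passed the filter on dim probes, and their median level stayed between -3.84 and -2.85 on every array. Of these 7, at least 5 were well above background on all arrays of each group. Pdgfrb, a receptor of stromal cells, lay at -4.12 ± 0.39 (SD, n = 3) in ENSW and -4.48 ± 1.32 in base medium in EV organoids, and on no BRAF or selected array was it well above background (group means -7.72 to -7.52). In ENSW medium the mean of Ptprc was also lower in BRAF and selected than in EV organoids, whereas those of Col1a2, Acta2, Pecam1, Cd68 and Cd3e were higher. Some of these lay within the spread between lines. Ptprc ranged from -4.82 to -3.63 in BRAF and from -4.20 to -3.79 in EV organoids. Cd3e lay at 0.14 ± 0.02 (SD) in EV, 0.19 ± 0.07 in BRAF and 0.18 ± 0.08 in selected organoids. Cd68 was well above background on 2 of 3 arrays in each type. Col1a2 lay at -3.28 in EV, -2.69 in BRAF and -2.77 in selected organoids. Acta2 lay at -2.61, -2.44 and -2.08. Cd3e was the brightest of these markers in EV, BRAF and selected organoids, with group means of 0.04 to 0.30. The part of these markers in the comparisons with EV was not tested. Both media of a line shared a slide, but EV organoids shared no slide with BRAF or selected organoids, so in comparisons with EV the slide cannot be told apart from the type.

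**Figure D1:**
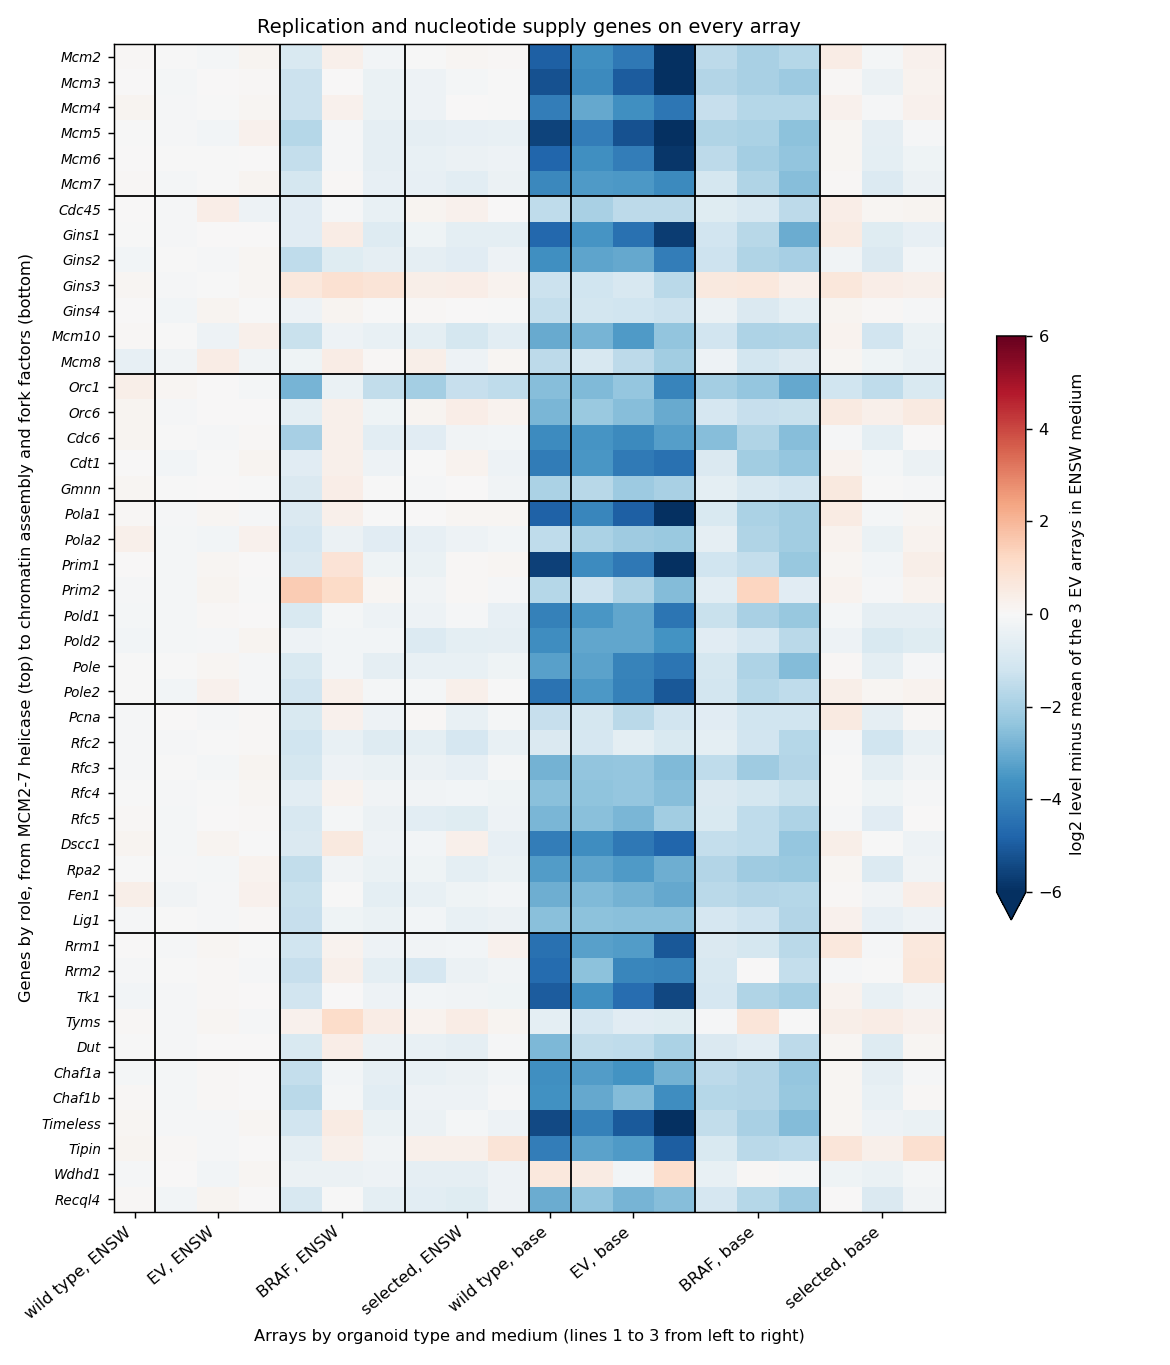
Log2 level of each of the 46 genes (vertical, by role) on each of the 20 arrays (horizontal, by medium and organoid type, lines 1 to 3 from left to right), shown as the difference from the mean of the 3 EV arrays in ENSW medium; blue is lower, red is higher, and values below -6 are drawn at -6. The EV and wild-type columns in base medium are blue for nearly all genes, the BRAF columns in base medium are paler, and Wdhd1 is near white or red there.

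Control organoids were compared between base and ENSW medium to see what loss of niche factors did to the replication genes. The set fell almost as a whole. In EV organoids 45 of the 46 genes were lower in base medium and 0 were higher, where 18.8% of all genes tested were lower and 23.4% higher (limma, adjusted p under 0.05 by Benjamini-Hochberg over all genes). The median difference was -3.21 on the log2 scale, a 9.27-fold lower signal, against a median of 0.19 for all genes tested. Wdhd1, which ties the helicase to polymerase alpha, was the exception, at 0.44 ± 0.23 (SE, n = 3 per group, adjusted p = 0.146).

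The fall was seen in each line. Within lines 1, 2 and 3 the median difference of the 46 genes was -2.995, -3.08 and -3.59, with 45, 46 and 45 genes lower. The wild-type pair of arrays gave -3.44, with 45 of 46 genes lower. For 38 of the 46 genes all 3 EV arrays in base medium lay below the other 15 arrays of the 6 groups, a pattern shown by 13.6% of all genes. Cdc45, Mcm8, Orc1, Pola2, Pcna, Rfc2, Dut and Wdhd1 did not have it. Base-medium signal of line 3 was not well above background for Mcm2, Gins1, Mcm8, Orc1, Cdc6, Pola1, Prim1, Pole2, Dscc1 and Timeless, so the sizes of their differences from EV in base medium are less certain.

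All 6 MCM2-7 subunits fell, with a median difference of -4.74 and a range of -5.64 to -3.55. Mcm5 lay at 2.54, 2.47 and 2.87 in EV lines 1, 2 and 3 in ENSW medium and at -1.54, -2.59 and -4.89 in base medium. The groups did not overlap, and line 3 had the lowest value in base medium. Mcm5 fell by 5.64 ± 0.62 on the log2 scale (SE, adjusted p = 1.96e-05, limma), which is a 49.7-fold lower signal. Mcm7 had the smallest fall of the ring subunits, from 3.76, 3.85 and 4.02 to 0.49, 0.44 and 0.06. Its 3 lines were close together in either medium, and the difference was -3.55 ± 0.34 (adjusted p = 9.09e-06).

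The 7 helicase partners fell less evenly, with a median of -1.69. Gins1, a subunit of the GINS complex, lay at 0.13, 0.25 and 0.23 in ENSW medium and at -3.35, -4.28 and -5.50 in base medium, where line 3 was not well above background. That is a difference of -4.58 ± 0.54 (adjusted p = 2.94e-05). Gins4, a subunit of the same complex, went from 0.74, 1.05 and 0.88 to -0.21, -0.33 and -0.42, a difference of -1.21 ± 0.15 (adjusted p = 4.9e-05). The groups did not overlap for either subunit, though the sizes were far apart. Gins2 and Gins3 fell by 3.46 ± 0.32 and 1.25 ± 0.17, Cdc45 by 1.69 ± 0.23 and Mcm10, a helper of helicase activation, by 2.85 ± 0.37. Mcm8, a relative of the ring subunits that acts in recombination repair, fell by 1.54 ± 0.31 (adjusted p = 0.00136, limma), a call lost with normexp background correction (adjusted p = 0.344). A second Mcm8 probe gave -4.56, so the size of its fall rests on the probe used.

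Among the 5 origin licensing genes the median difference was -2.98. Cdt1, which brings the ring to origins, lay at 3.74, 3.88 and 4.07 in ENSW medium and at 0.42, -0.35 and -0.58 in base medium, a difference of -4.07 ± 0.36 (adjusted p = 6.76e-06). Its inhibitor geminin, Gmnn, lay at 0.76, 0.79 and 0.75 and then at -0.88, -1.43 and -1.16, a difference of -1.92 ± 0.27 (adjusted p = 9.11e-05). Both thus fell, with no overlap between media. Cdc6, the loader that works with the origin complex, lay at -2.22, -2.25 and -2.10 in ENSW medium and was well above background on 0 of 3 arrays in base medium (-5.73, -6.02 and -5.52). Its signal was at least 9.54-fold lower (adjusted p = 2.94e-05); for this bound the ENSW mean was divided by the dimmest signal still well above background on each base array, or the probe's own where higher. Orc1 and Orc6, subunits of the origin recognition complex, fell by 2.98 ± 0.51 and 2.62 ± 0.22, and Orc1 was well above background on 1 of 3 arrays in base medium.

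The 8 polymerase and primase genes fell by a median of 3.76 on the log2 scale. Pola1, the catalytic subunit of polymerase alpha, lay at 0.20, 0.39 and 0.18 in ENSW medium and at -3.67, -4.66 and -6.65 in base medium, with line 3 not well above background. The difference was -5.25 ± 0.56 (adjusted p = 1.58e-05). Its partner Pola2 fell by 2.09 ± 0.32. Prim1, the catalytic primase subunit, fell by 5.06 ± 0.65, and Prim2, the large primase subunit, had the smallest fall of the group. Prim2 lay at 0.05, 0.31 and 0.12 and then at -1.08, -1.64 and -2.45, a difference of -1.89 ± 0.48 (adjusted p = 0.00564), a call lost without both arrays of EV line 3 (adjusted p = 0.0719). The delta subunits Pold1 and Pold2, which serve the lagging strand, fell by 3.66 ± 0.31 and 3.27 ± 0.23. The epsilon subunits Pole and Pole2, which serve the leading strand, fell by 3.86 ± 0.35 and 4.20 ± 0.38.

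The 9 genes of the clamp, its loaders and lagging-strand work fell by a median of 2.44. Dscc1, part of an alternative clamp loader, lay at -1.16, -0.83 and -1.06 in ENSW medium and at -4.75, -5.32 and -5.76 in base medium, with line 3 not well above background there, a difference of -4.26 ± 0.37 (adjusted p = 6.23e-06). The main loader subunits Rfc3, Rfc4 and Rfc5 each fell by 2.44, with SEs of 0.22, 0.18 and 0.28. A second Rfc4 probe gave -3.57, so the equal size rests on the probe used. Rfc2, the remaining loader subunit measured, lay at 2.61, 2.63 and 2.74 and then at 1.64, 2.05 and 1.73. Its difference of -0.85 ± 0.32 (adjusted p = 0.0427) was near the threshold and lost its call in 17 of 38 other settings, with adjusted p up to 0.209. With the line number, shared across types, as a replicate block its adjusted p was 0.0533. Pcna, the clamp itself, fell by 1.27 ± 0.31. Rpa2, which coats single-stranded DNA, Fen1, which trims flaps, and Lig1, which seals nicks, fell by 3.18 ± 0.30, 2.86 ± 0.26 and 2.49 ± 0.28.

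All 5 nucleotide supply genes fell, with a median of -3.46. Tk1, the cytosolic thymidine kinase, lay at 3.23, 3.37 and 3.31 in ENSW medium and at -0.36, -1.27 and -2.17 in base medium, a difference of -4.57 ± 0.40 (adjusted p = 6.45e-06) or 23.8-fold. Rrm1 and Rrm2, the subunits of ribonucleotide reductase, fell by 3.90 ± 0.44 and 3.46 ± 0.48, and Dut, the dUTPase, by 1.63 ± 0.33. Tyms, the thymidylate synthase, had the smallest fall. Its values were -2.79, -2.62 and -2.78 and then -3.72, -3.41 and -3.47, a difference of -0.80 ± 0.23 (adjusted p = 0.0108). That call was lost in 3 of 38 other settings, with an adjusted p of 0.356 under normexp.

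Of the 6 chromatin assembly and fork genes 5 fell. Timeless, which steadies the moving fork, lay at 1.22, 1.21 and 1.39 in ENSW medium and at -2.79, -3.74 and -5.93 in base medium, a difference of -5.43 ± 0.60 (adjusted p = 2.01e-05), with line 3 in base medium not well above background. Its partner Tipin fell by 3.85 ± 0.38. The histone chaperone subunits Chaf1a and Chaf1b fell by 3.25 ± 0.30 and 3.14 ± 0.34, and the helicase gene Recql4 by 2.58 ± 0.31. Wdhd1 lay at -0.74, -0.90 and -0.64 in ENSW medium and at -0.28, -0.94 and 0.25 in base medium, so its groups overlapped.

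**Figure D2:**
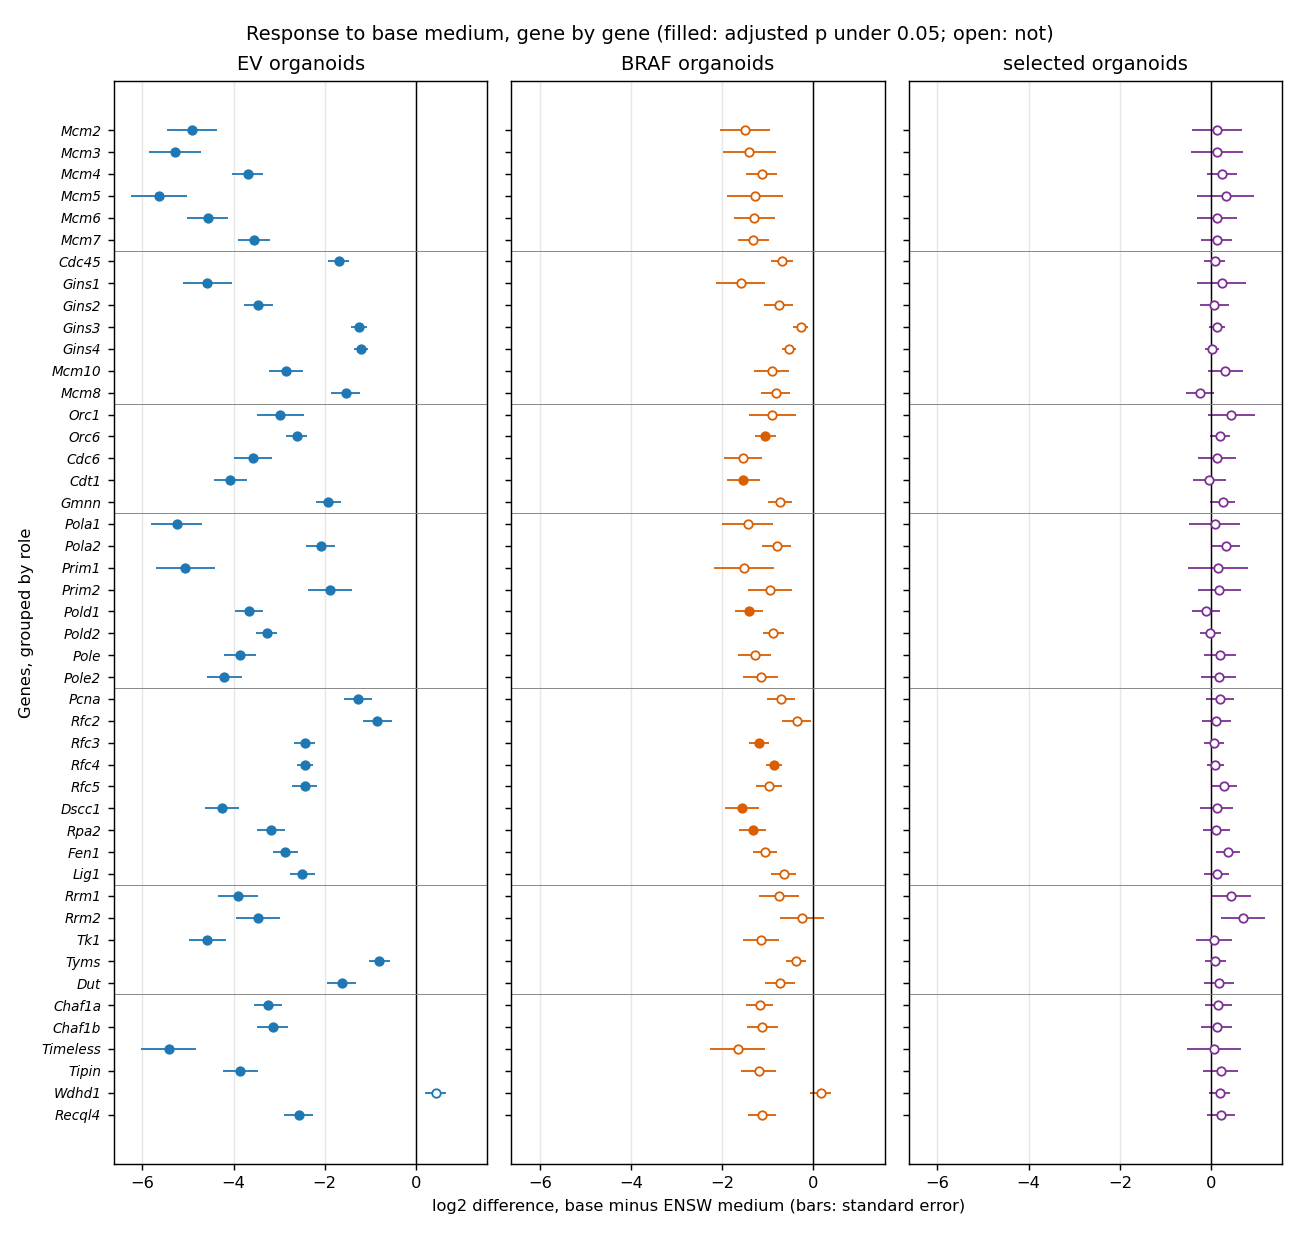
Difference between base and ENSW medium (log2, horizontal) for each of the 46 genes (vertical, by role) in EV, BRAF and selected organoids, with bars of 1 SE from the limma fit; filled symbols passed the test. EV values reach -5.64, BRAF values lie between -1.66 and 0.16, and selected values between -0.24 and 0.71.

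In EV organoids the median level of mature colonocyte markers rose in base medium, while these genes fell. The 8 markers, Krt20, Slc26a3, Car1, Car4, Aqp8, Guca2a, Fabp2 and Cdhr5, had array medians of 1.83 to 3.70 in EV organoids in ENSW medium and 5.86 to 7.65 in base medium, with all 8 well above background on every one of these arrays. The part of cell makeup in the fall was not tested. In bulk RNA fewer dividing cells and less transcript per cell cannot be told apart.

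BRAF organoids were compared between media in the same way, which shows the same withdrawal with the active allele. The median difference was -1.09, a 2.13-fold lower signal, and 45 of 46 genes had a value below 0. In the main test, which does not pair the media of a line, 7 passed, all lower, against 0.593% of all genes lower and 1.08% higher. More passed when the culture (both media of a line) was a random block, as given below. The 7 were the clamp loader genes Rfc3, Rfc4 and Dscc1, the single-strand binding gene Rpa2, the licensing genes Orc6 and Cdt1, and the polymerase gene Pold1.

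Rfc3 lay at -2.84, -2.08 and -2.19 in BRAF lines 1, 2 and 3 in ENSW medium and at -3.29, -3.91 and -3.52 in base medium, a difference of -1.20 ± 0.22 (adjusted p = 0.0196, limma). Rfc4 lay at 1.82, 2.64 and 2.23 and then at 1.58, 1.38 and 1.13, a difference of -0.87 ± 0.18 (adjusted p = 0.032). Neither gene overlapped between media, and in both the change was smallest in line 1. Orc6 went from 1.76, 2.63 and 2.08 to 1.35, 0.94 and 1.02 (-1.05 ± 0.22, adjusted p = 0.0336). Pold1 went from 1.96, 2.74 and 2.55 to 1.52, 0.91 and 0.60 (-1.41 ± 0.31, adjusted p = 0.0366). In these genes too the groups were apart and line 1 moved least. Rpa2 went from -1.22, 0.02 and -0.16 to -1.5, -1.90 and -1.96 (-1.34 ± 0.30, adjusted p = 0.043). Cdt1 went from 3.24, 4.20 and 3.62 to 3.02, 1.81 and 1.59 (-1.54 ± 0.36, adjusted p = 0.0487). Dscc1, at -1.57 ± 0.37, had an adjusted p of 0.049.

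The lines of BRAF organoids were unlike in this response. The median difference of the 46 genes was -0.09 in line 1, with 32 genes lower, -1.69 in line 2, with 44 lower, and -1.45 in line 3, with 45 lower. In 27 of 46 genes the lower group did not overlap the higher one, against 9.76% of all genes. The count of calls depended on single arrays. It was 0 without any 1 of the ENSW or base arrays of BRAF lines 2 and 3, and also 0 without both arrays of EV line 1. It was 12 without the ENSW array of BRAF line 1, 17 without its base array, 23 without both, and 15 without the base array of EV line 3. Leaving out any other single array gave 2 to 5 calls. With the culture (both media of 1 line) as a random block it was 31, against 9.06% of all genes lower.

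Colonocyte markers in BRAF organoids had array medians of -0.10 to 1.17 in ENSW medium and 3.39 to 4.63 in base medium. The relation of these levels to the replication genes was not tested.

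No gene of the set changed between media in selected organoids. All 46 missed the threshold in limma, and 0.00467% of all genes tested passed in either direction. At an unadjusted p under 0.05 there were 0 of the 46, against 318 of all 21410 genes. The median difference was 0.14, with a range of -0.24 to 0.71, and 4 of 46 genes lay below 0. Mcm5 lay at 2.09, 2.14 and 2.19 in ENSW medium and at 2.76, 2.08 and 2.54 in base medium, and Tk1 at 3.14, 3.09 and 3.03 and then at 3.52, 2.86 and 3.1. Both overlapped between media. By line the median was 0.49, -0.13 and 0.17, so the lines did not share a direction. A test that misses the threshold does not show that the media act alike, and for Mcm5 the difference was 0.32 ± 0.62 (SE). That SE rests on 1 estimate of spread per gene, shared by all 6 groups. For Mcm5 the SD was 1.71 in EV organoids in base medium. In selected organoids it was 0.05 in ENSW and 0.35 in base medium. Colonocyte markers in these organoids had array medians of -2.91 to -2.18 in ENSW medium and -3.04 to -1.15 in base medium. Slc26a3 was well above background on 0 of 3 arrays in either medium. Car4 was not low in selected organoids, with means of 4.41 in ENSW and 4.34 in base medium against 3.69 and 4.29 in EV organoids.

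**Figure D3:**
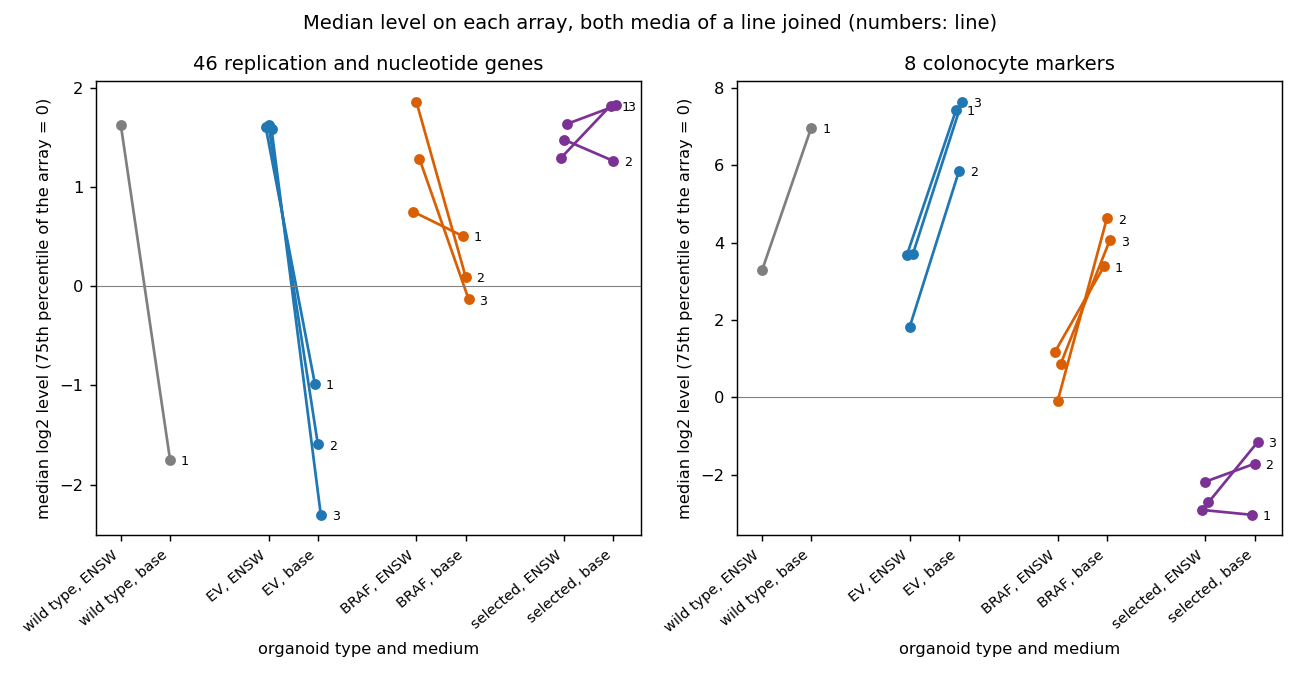
Median level on each array (log2 relative to the array's 75th percentile, vertical) of the 46 replication genes (left) and of the 8 colonocyte markers (right), by organoid type and medium; lines join both media of a line and numbers name it. Replication medians lie at 1.59 to 1.63 for EV in ENSW medium, -2.31 to -0.98 for EV in base medium, -0.13 to 0.51 in BRAF in base medium and 1.27 to 1.83 in selected in base medium.

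The response to the medium was then compared between organoid types, as a test of the difference itself. It was called smaller in BRAF than in EV organoids in 29 of 46 genes and larger in 0. Of all genes, 2.98% were called with a difference in response above 0 and 0.551% with one below 0. The median of the 46 differences in response was 2.05. By role these were 6 of 6 MCM2-7 genes, 3 of 7 helicase partners, 2 of 5 licensing genes, 5 of 8 polymerase and primase genes, 6 of 9 clamp genes, 3 of 5 nucleotide genes and 4 of 6 chromatin and fork genes. Between selected and EV organoids the response differed in 43 of 46, all with values above 0. Of all genes, 13.8% were called above 0 and 10.4% below 0. The median was 3.35, and Rfc2, Tyms and Wdhd1 were the genes not called. Both comparisons share the EV arrays.

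Pold2, the accessory subunit of polymerase delta, had the smallest adjusted p in both. Its EV levels were 0.85, 0.91 and 1.16 in ENSW medium and -2.16, -2.13 and -2.62 in base medium. In BRAF organoids it lay at 0.68, 0.80 and 0.82 and then at 0.31, -0.01 and -0.66, and in selected organoids at 0.14, 0.40 and 0.44 and then at 0.65, 0.05 and 0.25. EV arrays in base medium were far below all others. The response of BRAF minus EV was 2.39 ± 0.33 (adjusted p = 0.00602, limma) and that of selected minus EV was 3.26 ± 0.33 (adjusted p = 0.000147). Rfc4 gave 1.57 ± 0.26 (adjusted p = 0.0132) and 2.53 ± 0.26 (adjusted p = 0.000153), from selected values of 2.22, 2.27 and 2.19 in ENSW medium and 2.44, 2.18 and 2.36 in base medium. Tk1 in BRAF organoids lay at 2.16, 3.33 and 3.00 and then at 2.28, 1.48 and 1.29, and its response of BRAF minus EV was 3.43 ± 0.56 (adjusted p = 0.0132).

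For Gins2, EV levels were 0.58, 0.52 and 0.73 in ENSW medium and -2.56, -2.44 and -3.54 in base medium, against -0.90, -0.12 and 0.07 and then -0.65, -1.22 and -1.38 in BRAF organoids. Its response of BRAF minus EV was 2.69 ± 0.45 (adjusted p = 0.0135, limma). The BRAF groups overlapped for Gins2 while the EV groups did not. Orc6 gave 2.82 ± 0.31 (adjusted p = 0.000225) for selected minus EV, from selected values of 2.51, 2.72 and 2.54 and then 2.87, 2.65 and 2.86. Fen1 gave 3.24 ± 0.37 (adjusted p = 0.000254), from 2.24, 2.45 and 2.53 and then 2.78, 2.49 and 3.1. In both genes the lowest selected array in base medium lay above every EV array in base medium.

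The response of BRAF minus EV was the less stable of these results. Its count fell to 4 to 6 without the ENSW array of EV line 2 or 3, the ENSW array of BRAF line 1 or 3, or the base array of BRAF line 1, and to 11 without the ENSW array of EV line 1. With both arrays of BRAF line 1 left out it was 1, and with slide as a fixed block it was 8. Leaving out both arrays of a line also took it to 5 (EV line 3), 8 (selected line 3), 12 (BRAF line 3) or 14 (EV line 2). Between selected and BRAF organoids no gene of the set was called for a differing response in limma, and 0% of all genes were. An unadjusted p under 0.05 was found for 27 of the 46, against 1800 of all 21410 genes. The median was 1.26, with values from 0.03 to 1.83. The smallest adjusted p was 0.376 for Orc6 (1.25 ± 0.31) and Rfc3 (1.26 ± 0.31), followed by Fen1 (1.44 ± 0.37, adjusted p = 0.379) and Rfc4 (0.97 ± 0.26, adjusted p = 0.406). With the culture as a random block 4 of 46 were called, a count given without the share of all genes in that setting.

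In ENSW medium few of these genes passed the test between organoid types. Between BRAF and EV organoids 1 gene of the set was higher and 0 lower, against 4.8% higher and 1.42% lower of all genes, and the median difference was -0.43. Values lay below 0 for 42 of 46 genes, and in 13 of them BRAF arrays were lower with no overlap, against 13.7% of all genes. The 1 gene was Gins3, the GINS subunit whose promoter is printed above. BRAF levels were 4.12, 4.43 and 4.27 and EV levels 3.43, 3.46 and 3.60, with no overlap, a difference of 0.78 ± 0.17 (adjusted p = 0.017, limma). In selected organoids it lay at 3.86, 3.88 and 3.71, between the other types, and the difference from EV was 0.32 ± 0.17 (adjusted p = 0.22). The call was lost without the ENSW array of EV line 1 (adjusted p = 0.0779) or of BRAF line 2 (adjusted p = 0.0887). With the line number, shared across types, as a replicate block 2 genes were called, given without the share of all genes there.

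Selected organoids differed from EV organoids in ENSW medium in 1 gene, which was lower, against 5.15% lower and 8.7% higher of all genes, and the median difference was -0.27. Values lay below 0 for 36 of 46 genes, and in 23 selected arrays were lower with no overlap, against 15.8% of all genes. Orc1, the large subunit of the origin recognition complex, lay at -4.69, -4.07 and -4.22 in selected and at -2.56, -2.64 and -2.81 in EV organoids. BRAF organoids spread from -5.48 in line 1 to -3.09 in line 2, with line 3 at -4.14. All selected and BRAF arrays lay below all EV arrays. The difference of selected from EV was -1.65 ± 0.51 (adjusted p = 0.0469, limma), and that of BRAF from EV was -1.57 ± 0.51 (adjusted p = 0.0855). The call for Orc1 was lost in 24 of 37 other settings, among them leaving out any 1 of the 6 arrays compared, with adjusted p up to 0.15. Between selected and BRAF organoids no gene of the set was called in ENSW medium, where 0.607% of all genes passed in either direction. In limma 2 of the 46 had an unadjusted p under 0.05, against 2281 of all 21410 genes. The median difference was 0.15.

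**Figure D4:**
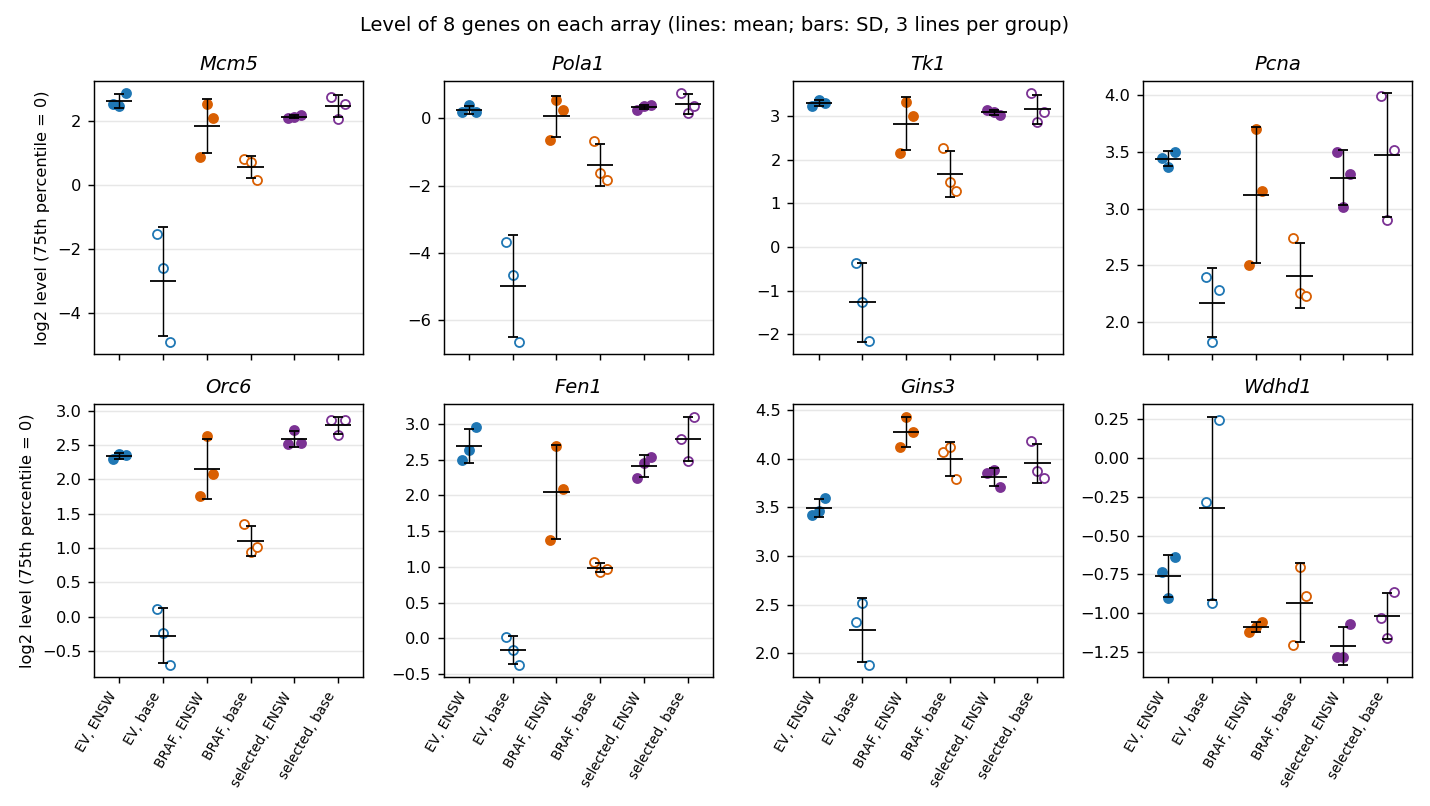
Level (log2 relative to the array's 75th percentile, vertical) of 8 genes on each array, by organoid type and medium (horizontal), 1 panel per gene with its own scale; points are the 3 lines (filled in ENSW, open in base medium), horizontal lines the mean and bars the SD. In Mcm5, Pola1, Tk1, Orc6 and Fen1 the EV arrays in base medium lie lowest, and BRAF arrays in base medium lie between them and the selected arrays. Pcna, Gins3 and Wdhd1 do not show this order. In base medium Pcna overlaps between EV (1.83 to 2.40) and BRAF (2.23 to 2.74). Gins3 overlaps there between BRAF (3.79 to 4.12) and selected (3.80 to 4.18).

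In base medium both types with the active allele were above EV organoids in most genes. Between BRAF and EV organoids 38 of 46 genes were higher and 0 lower, against 17.9% and 13.1% of all genes, with a median difference of 1.56 or 2.95-fold. The 8 not called were Cdc45, Mcm8, Orc1, Pola2, Pcna, Rfc2, Dut and Wdhd1. For Mcm8 the difference was 0.80 on the probe used and 3.29 on its second probe, so its place among them rests on the choice of probe. All 6 MCM2-7 genes were higher (median 2.87), as were 7 of 8 polymerase and primase genes (median 2.11), 4 of 5 nucleotide genes (median 2.67) and 7 of 9 clamp genes (median 1.14). Mcm5 lay at 0.81, 0.73 and 0.16 in BRAF organoids, above every EV array in base medium, a difference of 3.58 ± 0.62 (adjusted p = 0.000798, limma). Pola1 lay at -0.68, -1.64 and -1.83, a difference of 3.61 ± 0.56 (adjusted p = 0.0004). Cdc6 was at least 1.92-fold higher (adjusted p = 0.035), a call lost in 12 of 37 other settings.

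Between selected and EV organoids in base medium 44 of 46 genes were higher, 1 was lower and Rfc2 was not called, against 25% higher and 23.2% lower of all genes. The median difference was 3.04 or 8.22-fold. For Timeless, selected values in base medium were 1.41, 0.97 and 0.86, a difference from EV in base medium of 5.23 ± 0.60 (adjusted p = 9.97e-06, limma), where EV line 3 was not well above background. Cdc6 was at least 8.23-fold higher (adjusted p = 1.92e-05), at -2.27, -2.77 and -2.17. Wdhd1 was the gene that was lower. It lay at -1.03, -1.16 and -0.87 in selected organoids, a difference of -0.70 ± 0.23 (adjusted p = 0.0216), a call lost without the base array of EV line 1 (adjusted p = 0.0564) or 3 (adjusted p = 0.114) or of selected line 1 (adjusted p = 0.0503) or 2 (adjusted p = 0.0685).

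Selected and BRAF organoids, which share the active allele, also differed in base medium. There 30 of 46 genes were higher in selected organoids and 0 lower, against 4.64% and 5.15% of all genes, with a median difference of 1.48 or 2.8-fold. By role these were 5 of 6 MCM2-7 genes, 3 of 7 helicase partners, 4 of 5 licensing genes, 4 of 8 polymerase and primase genes, 8 of 9 clamp genes, 2 of 5 nucleotide genes and 4 of 6 chromatin and fork genes. Orc6 lay at 2.87, 2.65 and 2.86 in selected and at 1.35, 0.94 and 1.02 in BRAF organoids, a difference of 1.69 ± 0.22 (adjusted p = 0.000548, limma). Rfc3 lay at -1.80, -2.34 and -1.99 against -3.29, -3.91 and -3.52, a difference of 1.53 ± 0.22 (adjusted p = 0.000969). Neither gene overlapped between the types. Mcm5 did not pass in limma (1.89 ± 0.62, adjusted p = 0.0682), nor did Rrm2 (0.99 ± 0.48, adjusted p = 0.221). For Mcm5 the types did not overlap, at 2.08 to 2.76 in selected and 0.16 to 0.81 in BRAF organoids. Its SE holds the spread of all 6 groups, EV organoids included.

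The count of 30 dropped to 13 or 14 without the base array of BRAF line 3 or 2, to 16 without that of selected line 1 and to 20 without that of selected line 3. It was 15, 15, 15 and 11 without both arrays of selected line 1, selected line 3, BRAF line 2 and BRAF line 3, and 19 with the culture as a random block. These counts stand without the share of all genes called in the same setting. On the slide that held both types, with selected line 3 and BRAF line 1, the median of selected minus BRAF was 0.97 in base medium, with 43 of 46 genes higher, and 0.83 in ENSW medium, with 42 of 46 higher. Array medians of the 8 colonocyte markers stood at -3.04 to -1.15 in selected and 3.39 to 4.63 in BRAF organoids in base medium. Car4 (4.24 to 4.46 against 4.29 to 4.93) and Aqp8 (-3.97 to -2.97 against -3.66 to 0.59) overlapped between the types, and the other markers did not. The part of these markers in the result was not tested.

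Genes related to the set were described from lists of other replication genes, of E2F factors with genes of S-phase entry, and of mitosis. In EV organoids, 33 of 46 other replication genes measured were lower in base than in ENSW medium and 2 higher, against 18.8% and 23.4% of all genes, with a median of -1.83. Ticrr, which helps fire origins, fell by 5.42 ± 0.46 (adjusted p = 5.89e-06, limma), Clspn, a checkpoint adaptor at the fork, by 4.42 ± 0.33 and the histone chaperone Asf1b by 4.18 ± 0.35. The 2 higher genes were Rrm2b, a reductase subunit used outside S phase (1.12 ± 0.23, adjusted p = 0.00121), and Tk2, the mitochondrial thymidine kinase (0.92 ± 0.19, adjusted p = 0.00166).

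Of 22 E2F and S-phase entry genes measured, 12 were lower and 3 higher in EV organoids in base medium, against the same 18.8% and 23.4%, with a median of -0.96. The activator E2f1 fell by 3.24 ± 0.31 (adjusted p = 8.84e-06, limma), its partner Tfdp1 by 1.49 ± 0.16, E2f8 by 4.88 ± 0.55 and the kinase Cdk4 by 2.43 ± 0.24. Those higher, a smaller share than of all genes, were Rb1, the retinoblastoma gene (1.41 ± 0.34, adjusted p = 0.00424), Rbl2 (1.04 ± 0.35, adjusted p = 0.0289) and E2f5 (0.86 ± 0.23, adjusted p = 0.0078). Among 24 mitosis genes 23 were lower, with a median of -4.44. In BRAF organoids, where 0.593% of all genes were lower and 1.08% higher, the same contrast called 1, 1 and 0 genes of the 3 lists. The genes were Orc2 (-0.95 ± 0.21, adjusted p = 0.0424, limma) and Tfdp1 (-0.74 ± 0.16, adjusted p = 0.0409). At an unadjusted p under 0.05 there were 24 of 46, 7 of 22 and 6 of 24, against 4031 of all 21410 genes. In selected organoids it called 0 in each. There 0, 1 and 0 genes had an unadjusted p under 0.05, against 318 of all 21410 genes.

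In base medium selected organoids had 35 of 46 other replication genes higher than EV organoids and 1 lower, 12 of 22 E2F and S-phase genes higher and 2 lower, and 24 of 24 mitosis genes higher, against 25% higher and 23.2% lower of all genes. BRAF organoids had 26 higher and 5 lower, 12 and 2, and 23 and 0, against 17.9% and 13.1%. Rb1 was lower in selected than in EV organoids by 2.46 ± 0.34 (adjusted p = 4.39e-05, limma), and lower than in BRAF organoids by 2.07 ± 0.34 (adjusted p = 0.00245). E2f1 was higher in selected organoids, by 3.16 ± 0.31 (adjusted p = 3.49e-06) against EV and by 1.72 ± 0.31 (adjusted p = 0.00424) against BRAF. Between selected and BRAF organoids 18 of the 46 other replication genes, 4 of the 22 E2F genes and 4 of the 24 mitosis genes were higher in base medium, and 1, 2 and 0 were lower, against 4.64% and 5.15% of all genes.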

How the data were processed

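Transcripts of 46 replication and nucleotide supply genes were compared in 6 groups of 3 arrays; 2 wild-type arrays were described. Per the file headers, spot intensity was extracted with Feature Extraction 10.7.3.1, and the processed signal is the deposited intensity after background subtraction. A second table, of log2 values deposited by the authors, covers the same arrays; its columns ranked probes as the median signal did and had equal distributions across arrays; centring beyond that is unknown, and it served as an alternative. The submitters' processing notes name limma.

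Here log2 of the processed signal was taken, and the 75th percentile of its array was subtracted. Controls (1377 spots) and 48 outlier spots over all arrays were left out, 0 spots were saturated, and spots of a probe were averaged. Of 39429 probes, 26802 were well above background on at least 3 of 18 arrays and were kept. The brightest probe stood for a gene, which left 21410 genes, 16074 with a symbol. Names were updated through the RefSeq accession (26581 probes), the symbol (2597) or an older symbol (492), and 9759 kept the file's name. Of 8 further probes of these genes, 8 had the same sign in the EV comparison of media; Mcm8's second probe gave -4.56 where the one used gave -1.54.

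Group means were fitted in R 4.3.3 with lmFit and eBayes of limma 3.58.1 (12 residual degrees of freedom) in 12 contrasts, 3 of them tests of a differing response, and calls needed an adjusted p (Benjamini-Hochberg, all genes of a contrast) under 0.05. The script was tested on simulated data. Tables and plots used Python 3.11.15, pandas 2.3.3 and matplotlib 3.10.9. The 3 arrays per group limit the precision.

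Line numbers are shared between types. Same-numbered arrays of a type deviated together between media (r from 0.423 to 0.874 over 9 pairs, all over 0.1). They also shared a slide, so r does not separate line from slide. The numbers were taken to pair the media of a line. Across types r was -0.0811 to 0.374, with 17 of 36 over 0.1. What a shared number means across types remains unknown. Values on every array are given for the largest and smallest EV difference per role, for up to 6 called genes by smallest adjusted p where under 20% of members were called, and for up to 4 genes per test of a differing response. Other genes are given by their difference. The genes, lists and rules were chosen with earlier results of these data known. Alternatives covered background correction, normalization, the authors' values, the filter on dim probes, probe choice, blocks and leaving out arrays.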

Additional observations from a re-analysis of the deposited data

Results flagged for a closer look

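By a direct test in limma the types differed in how they responded to the medium, in 29 of the 46 replication genes for BRAF minus EV organoids and in 43 for selected minus EV. Among the genes named for it, Pold2 gave 2.388 and 3.262 on the log2 scale, Rfc4 1.567 and 2.534, Tk1 3.425 and Gins2 2.69 for BRAF minus EV, and Orc6 2.821 and Fen1 3.243 for selected minus EV. All of these values are above 0. They share the EV arrays, and the first count was carried by few arrays: it was 1 without both arrays of BRAF line 1.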

How the results depend on the processing

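No called gene turned direction in any setting tried. Calls kept in every setting were 41 of 45 (media, EV), 0 of 7 (media, BRAF), 26 of 38 (BRAF against EV, base), 42 of 45 (selected against EV, base), 10 of 30 (selected against BRAF, base), 1 of 29 (response, BRAF minus EV) and 38 of 43 (response, selected minus EV), and neither single call in ENSW medium was kept. The causes of what follows were not tested. Counts in other settings are given without the share of all genes called there, unless stated, and describe stability only. Under normexp the median differences were -2.365 (media, EV), 1.057 (BRAF against EV, base), 2.105 (selected against EV, base), 1.522 and 2.587 (responses of BRAF and of selected minus EV), and with the authors' values -2.651 (media, EV), 2.56 (selected against EV, base) and 2.845 (response of selected minus EV). Calls between media in BRAF organoids were 13 with normexp, 15 with the authors' values, 3 without a filter, 31 with culture and 12 with slide as a random block, 4 with slide as a fixed block, and 0 to 23 with arrays left out (median -1.601 to -0.7735). BRAF against EV in ENSW medium gave 2 with normexp, 3 with the authors' values, 2 with the replicate block and 0 to 1 with arrays left out. Selected against EV in ENSW medium gave 0 with quantile normalization, without a filter and with culture or slide as a random block, 2 with the authors' values, and 0 to 2 with arrays left out. Selected against BRAF in base medium gave 19 with culture as a block and 11 to 35 with arrays left out. The response of BRAF minus EV gave 8 with slide as a fixed block and 1 to 33 with arrays left out (median 1.541 to 2.386), and that of selected minus BRAF gave 4 with culture as a block (median 0.9569 to 1.794 with arrays left out). With the line number, shared across types, as a block (replicate block), the counts were 44 between media in EV, 7 in BRAF and 0 in selected organoids. The setting that pairs the media of a line within its type is the culture block, which gave the 31 in BRAF organoids. Quantile normalization moved the median of all genes between media in EV organoids from 0.1886 to 0.0848. Leaving out population outlier spots, an alternative chosen after seeing the data, kept every count within 1.5 times. Signal near background limits the sizes for Cdc6, Orc1, Mcm8, Mcm2, Gins1, Pola1, Prim1, Pole2, Dscc1 and Timeless, in which EV line 3 in base medium was not well above it.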
